A study of Mus musculus with 16 samples.

Results

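The genes described here are 9 that glycolysis or the response to low oxygen brings together: Hk2, Pfkp, Pfkl, Aldoa, Tpi1, Pgk1, Eno1, Ldha and Bnip3. A probe set, the group of short probes that reports 1 transcript on an Affymetrix array, was taken when the array annotation gave it a single symbol and that symbol was one of the 9. This gave 11 of the 12488 probe sets of the array, for 8 of the 9 genes and of the 8252 genes with a probe set of their own. Pfkp, Aldoa and Hk2 had 2 probe sets each, numbered by mean signal, and Eno1 was not analysed here because no probe set carried its symbol alone.

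Gene expression was measured in 16 mouse samples of 6 groups, 1 U74Av2 array per sample. Embryonic stem (ES) cells, the cultured pluripotent cells of the early embryo, made up 4 groups of 3 arrays: the +/+ line ESVJ, an Abca1 +/- line derived from it, the +/+ line E14, and a Cdk4 +/- line for which E14 is the control. Abca1 encodes a cholesterol exporter and Cdk4 a kinase of the cell cycle. Each mutant is given as a single cell line, and the labels do not say whether the arrays of a line came from separate cultures, so the p-values measure the spread between these samples only.

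The culture of the lines differed. ESVJ and the Abca1 +/- line were grown on irradiated embryonic fibroblasts, depleted of them and then plated on gelatin, and their RNA was isolated with Trizol and RNeasy. E14 and the Cdk4 +/- line were feeder-independent, and RNeasy alone was used. Between these pairs of lines, the line, its culture and its RNA isolation cannot be told apart. Livers made up 2 groups of 2 arrays, from +/+ mice and from mice labelled Abca1 +/-, both of mixed 129/SvJ and C57BL6/J background, with RNeasy RNA. The labels give the mice no age.

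Glycolysis breaks glucose down to pyruvate in the cytosol and yields ATP without oxygen. Hexokinase and phosphofructokinase are among its controlled steps, and lactate dehydrogenase keeps it running by turning pyruvate into lactate and regenerating NAD+. When oxygen is short, the hypoxia-inducible factors HIF1 and HIF2 escape degradation, bind short DNA elements with their partner Arnt and raise many glycolytic genes as well as Bnip3, a protein of the outer mitochondrial membrane that takes part in the removal of mitochondria. Mouse ES cells are known for high glycolysis, whereas the liver also makes glucose by the reverse route, gluconeogenesis.

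RefSeq promoter windows of 300 bases, from 250 bases before to 50 bases after an annotated start (GRCm38.p6), were at hand for all 9 genes, 14 windows in all. They were searched on both strands for ACGTG, the core of the hypoxia response element, and for GCGTG, a variant of it. On the other strand these read CACGT and CACGC, and the palindrome CACGTG therefore holds 2 overlapping matches. The core was found in 6 of the 14 windows, the variant in 8 and either in 12. Some of these share sites: the Aldoa windows with the core overlap and hold the same match, and 2 of the 3 Eno1 windows overlap and hold the same 2 variant matches. Of all 32851 windows of the table, 19.6% held ACGTG, 32.4% held GCGTG and 43.8% held either.

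Shown are the windows of Bnip3 and Pfkp, whose signals differed most between the ES lines, and those of Hk2, Pgk1 and Ldha, whose signals differed less, with every match in capitals. Bnip3 lies at chr7:138909457-138909756 (minus strand), Pfkp at chr13:6648722-6649021 (minus), Hk2 at chr6:82774405-82774704 (minus), Pgk1 at chrX:106186850-106187149 (plus) and the first of 2 Ldha windows at chr7:46845554-46845853 (plus).
Bnip3: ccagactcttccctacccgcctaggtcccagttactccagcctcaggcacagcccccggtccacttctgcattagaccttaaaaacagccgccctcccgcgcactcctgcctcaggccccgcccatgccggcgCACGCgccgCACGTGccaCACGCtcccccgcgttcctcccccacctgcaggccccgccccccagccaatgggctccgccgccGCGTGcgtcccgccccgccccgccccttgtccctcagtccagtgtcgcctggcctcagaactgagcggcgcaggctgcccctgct
Pfkp: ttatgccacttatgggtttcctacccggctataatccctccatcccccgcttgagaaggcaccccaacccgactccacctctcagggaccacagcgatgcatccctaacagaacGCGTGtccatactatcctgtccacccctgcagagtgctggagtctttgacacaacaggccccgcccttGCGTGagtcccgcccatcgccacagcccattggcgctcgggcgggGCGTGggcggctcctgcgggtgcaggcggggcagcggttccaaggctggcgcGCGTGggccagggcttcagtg
Hk2: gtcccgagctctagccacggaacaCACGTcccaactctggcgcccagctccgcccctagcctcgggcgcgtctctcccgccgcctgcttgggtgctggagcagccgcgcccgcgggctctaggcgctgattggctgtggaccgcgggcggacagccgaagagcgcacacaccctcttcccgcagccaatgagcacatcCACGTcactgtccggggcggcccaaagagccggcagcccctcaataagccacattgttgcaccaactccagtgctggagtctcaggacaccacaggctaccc
Pgk1: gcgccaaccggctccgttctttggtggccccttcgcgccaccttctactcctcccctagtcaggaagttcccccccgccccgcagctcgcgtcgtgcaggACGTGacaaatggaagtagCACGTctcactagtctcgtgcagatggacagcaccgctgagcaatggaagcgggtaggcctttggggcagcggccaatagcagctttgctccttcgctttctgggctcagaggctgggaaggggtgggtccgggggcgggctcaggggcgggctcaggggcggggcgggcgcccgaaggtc
Ldha: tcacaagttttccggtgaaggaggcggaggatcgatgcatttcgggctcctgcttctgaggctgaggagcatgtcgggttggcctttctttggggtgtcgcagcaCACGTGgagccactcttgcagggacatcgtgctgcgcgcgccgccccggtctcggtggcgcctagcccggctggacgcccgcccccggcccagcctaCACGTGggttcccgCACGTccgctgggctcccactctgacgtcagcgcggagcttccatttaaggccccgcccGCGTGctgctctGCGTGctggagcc
Bnip3 had 2 matches of ACGTG, both in 1 CACGTG, and 3 of GCGTG. Pfkp had 4 matches of GCGTG and 0 of ACGTG, Hk2 and Pgk1 each had 2 of ACGTG and 0 of GCGTG, and Ldha had 5 and 2. At least 3 matches of either kind were present in 8.93% of all windows. Pfkl had 1 match of GCGTG, and the Tpi1 window held neither motif. A match is a string of letters and was not tested as a site. Ldha, whose signal differed less between the lines, held 7 matches of either kind and Bnip3 5.

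Signals are linear intensities on a scale where every array has a trimmed mean of 500. Tests used log2(signal + 32), so a stated fold is of signal plus 32 and understates the change where the signal is low, and a probe set passed when limma's p-value, adjusted over all tested probe sets, was under 0.05. Of the 11 member probe sets, 10 reached the mean signal of 100 needed for a test in the ES cells. The second Hk2 probe set stayed between 1.37 and 18.3 on all 16 arrays and was not tested.

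The tissue labels held: 13 hepatocyte markers summed to 257747 to 330249 in the livers against 512 to 1083 in the ES cells, and 12 ES markers to 34424 to 65379 in the ES cells against 696 to 936 in the livers. One Cdk4 probe set was lower in the Cdk4 +/- line than in E14 (3678 ± 209 against 5716 ± 188, SD, n = 3 each; log2 -0.63, adjusted p = 0.00436) and the other did not pass (adjusted p = 0.104). The Abca1 probe set of higher signal read 110 ± 14.8 in the Abca1 +/- line and 141 ± 38.1 in ESVJ (adjusted p = 0.9997), and in the livers it went against the label, with 627 ± 102 in those labelled Abca1 +/- and 314 ± 18.5 in the +/+ ones (n = 2 each, adjusted p = 0.191). The other Abca1 probe set went with the label in the livers without passing, at 101 ± 84.2 in those labelled Abca1 +/- and 217 ± 109 in the +/+ ones (log2 -0.996, adjusted p = 0.366), and it was too low for a test in the ES cells. Where the deleted part of a gene lies relative to its probes is not given in the sources used here. The labels number no replicates, so arrays are numbered here within each group in the order of the samples. Replicate 1 of Abca1 +/-, replicate 3 of ESVJ and replicate 2 of Cdk4 +/- had BioB spike-in signals of 2808 to 2985, above the other arrays of their groups. Replicate 1 of the livers labelled Abca1 +/- had a Gapdh 5'/3' ratio of 0.244, against 0.888 to 1.23 in the other livers, and an actin ratio of 0.121 against 0.467 to 0.563.

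**Figure D1:**
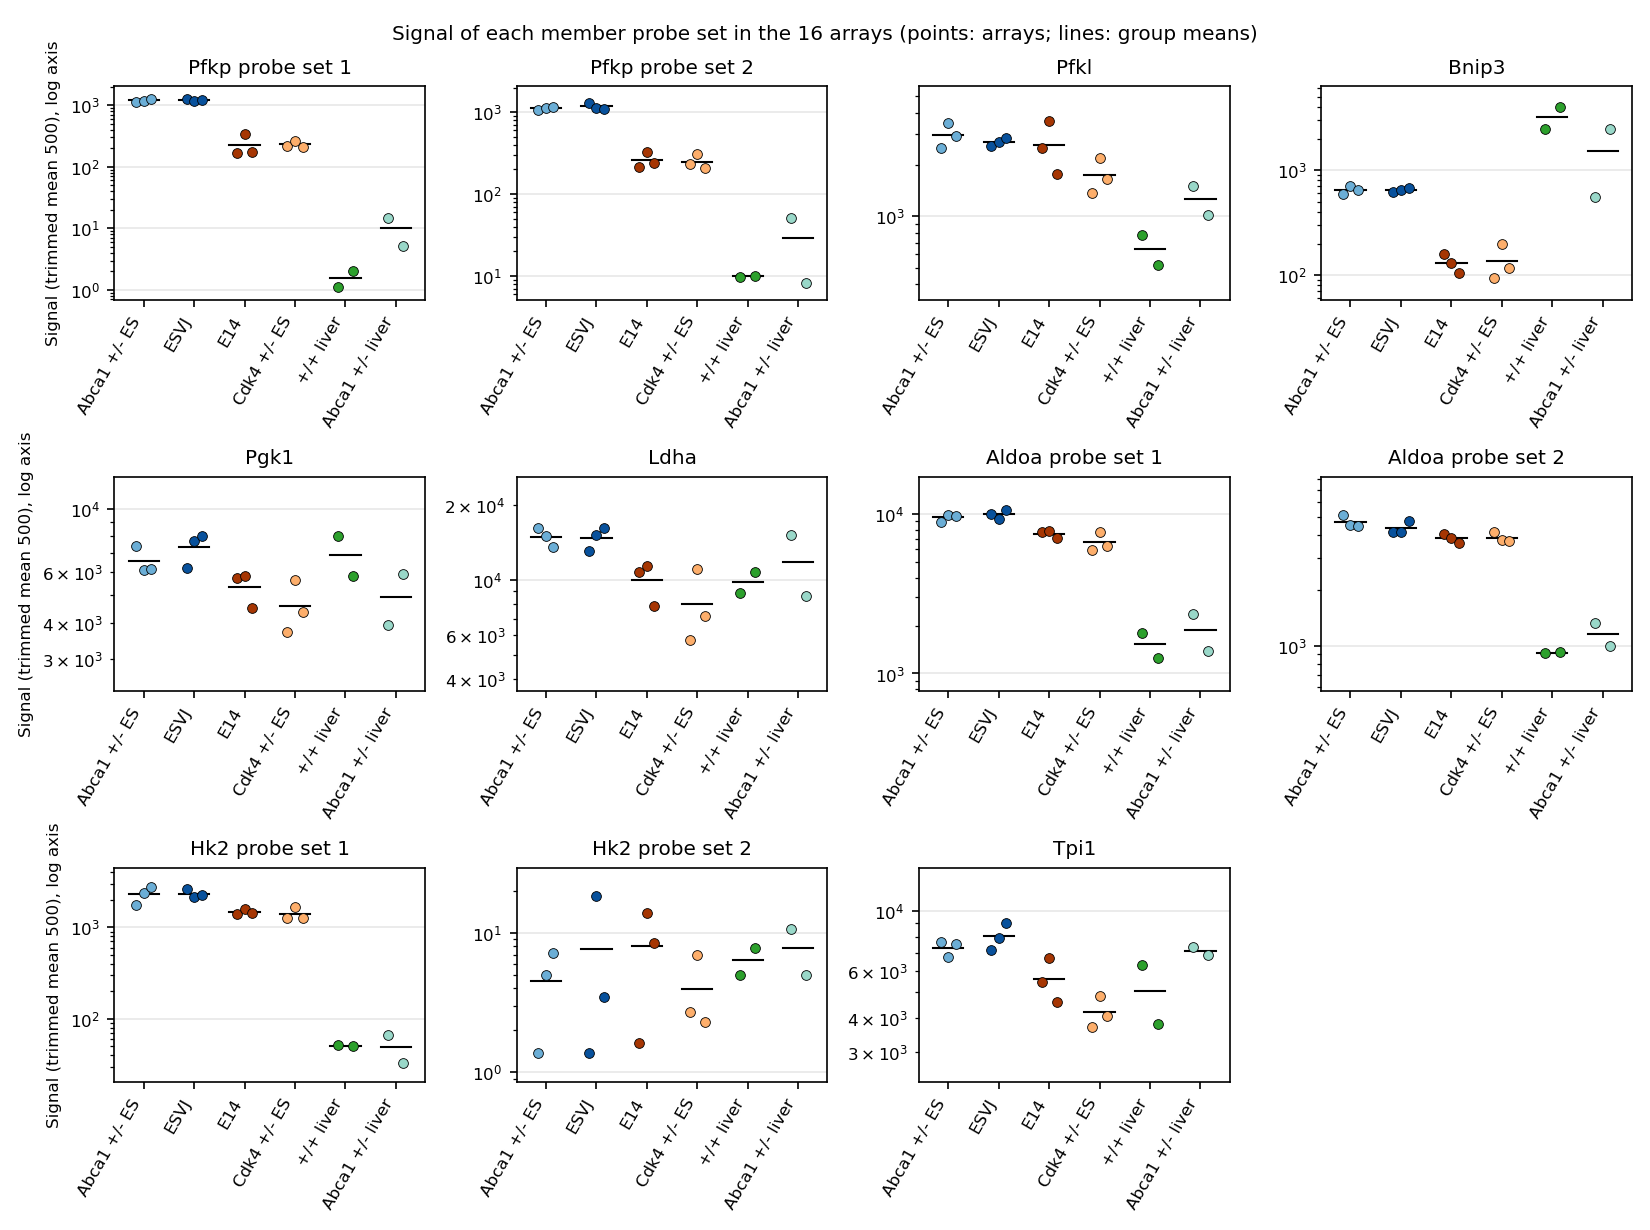
Signal of each member probe set in the 16 arrays, on a log axis, 1 panel per probe set and 1 point per array; bars mark group means. Bnip3 and both Pfkp probe sets separate the lines once grown on feeders (ESVJ, Abca1 +/-) from the feeder-independent ones (E14, Cdk4 +/-) with a wide gap; the +/+ livers are highest for Bnip3, and all 4 livers are lowest for both Pfkp probe sets and the first Hk2 probe set.

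Among the ES cells, E14 was first compared with ESVJ, the +/+ lines grown without and with feeders. Of the 10 member probe sets tested, 8 were lower in E14 than in ESVJ and 0 were higher, covering 7 of the 8 genes. This has to be read against a broad difference between these lines: 42.6% of all 7349 tested probe sets passed, 22.8% as lower and 19.8% as higher in E14. The median member difference was -0.55 on the log2 scale, against -0.09 over all tested probe sets. Signals of E14 and ESVJ did not overlap for 9 of the 10, against 52% of all probe sets.

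Phosphofructokinase commits sugar to glycolysis, and its platelet-type subunit Pfkp showed the largest difference. Its first probe set read 1279.9, 1177 and 1234 in ESVJ and 1127, 1188 and 1268 in Abca1 +/-, but 168, 344 and 172 in E14 and 220.2, 264 and 208 in Cdk4 +/-. Every array of the first pair of lines lay above every array of the second by a wide margin. E14 stood at 19.7% of ESVJ (95% interval 14.7 to 26.4%), a log2 difference of -2.35 ± 0.20 (SE, adjusted p = 2.97e-07). The second probe set gave the same picture, with 1305, 1127 and 1099 in ESVJ against 214, 325 and 238 in E14 (log2 -2.07 ± 0.16, adjusted p = 1.54e-07). The first carries the array's _g mark, which the manufacturer gives to probes shared with related sequences, and the second does not.

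Pfkl, the liver-type subunit of the same enzyme, did not pass. It read 2567, 2710.1 and 2851 in ESVJ and 2487, 3596 and 1753 in E14, where the arrays of E14 spanned those of ESVJ. The log2 difference was -0.11 with a 95% interval of -0.58 to 0.35 (adjusted p = 0.711). Its interval and those of the Pfkp probe sets do not overlap, although the difference between the subunits was not itself tested.

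Bnip3, the one member that is not a glycolytic enzyme, followed Pfkp. Its signal was 625, 650.0 and 679 in ESVJ and 598, 710.2 and 648 in Abca1 +/-, against 159, 129 and 105 in E14 and 92.9, 198 and 117 in Cdk4 +/-. The highest array of the second pair of lines, at 198, lay well below the lowest of the first, at 598. The E14 level was 23.6% of that in ESVJ (95% interval 17.5 to 31.8%), a log2 difference of -2.08 ± 0.20 (adjusted p = 1.17e-06).

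Hexokinase traps glucose in the cell as glucose 6-phosphate, and Hk2 is an isoform that can bind to mitochondria. Its first probe set read 2637, 2138 and 2245 in ESVJ and 1404, 1581 and 1448 in E14, with no overlap. E14 stood at 63.8% of ESVJ (log2 -0.65 ± 0.16, adjusted p = 0.00503).

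The remaining enzymes differed by less. Tpi1, which interconverts the triose phosphates, read 7178, 7933 and 9002 in ESVJ against 5461, 6704 and 4603 in E14 (69.1%, log2 -0.53 ± 0.15, adjusted p = 0.00945). Pgk1, the X-linked enzyme of the first ATP-yielding step, read 6224, 7716 and 8054 against 5741, 5811 and 4494 (73%, log2 -0.45 ± 0.16, adjusted p = 0.0355). In both genes the lines did not overlap, but the gap between the nearest arrays was small beside the spread within each line.

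Ldha, the subunit of lactate dehydrogenase that favours lactate formation, read 13003, 15086 and 16135 in ESVJ against 10773, 11320.5 and 7885 in E14 (67.3%, log2 -0.57 ± 0.20, adjusted p = 0.0317). Aldoa splits the 6-carbon sugar phosphate that phosphofructokinase makes. Its first probe set read 10047, 9293 and 10690.2 in ESVJ against 7701, 7832 and 7064 in E14 (75.4%, log2 -0.41 ± 0.12, adjusted p = 0.0126). The second read 4116, 4145 and 4732 against 4013, 3846 and 3597, and it did not pass (log2 -0.18 ± 0.11, adjusted p = 0.204), so the Aldoa probe sets disagree on the call. Both carry the _f mark for probes shared within a sequence family.

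These smaller calls depended on settings, whereas those of Pfkp, Bnip3 and Hk2 passed under every alternative tried. With quantile normalization Ldha (log2 -0.22, adjusted p = 0.322) and the first Aldoa probe set (log2 -0.25, adjusted p = 0.0519) no longer passed. Replicate 3 of E14 was the lowest of its group in 7 of the 10 member probe sets. Without it 5 rather than 8 passed, where 37.3% of all probe sets did, against 42.6% in the main fit. Pgk1 (adjusted p = 0.146), Ldha (0.143) and Tpi1 (0.0505) were lost. Pgk1 and Ldha were also lost without replicate 2 of ESVJ (adjusted p = 0.0994 and 0.0786), without replicate 3 of ESVJ (0.118 and 0.101), and with no signal filter (0.0601 and 0.0605), and Pgk1 without the intensity trend (0.0552).

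**Figure D2:**
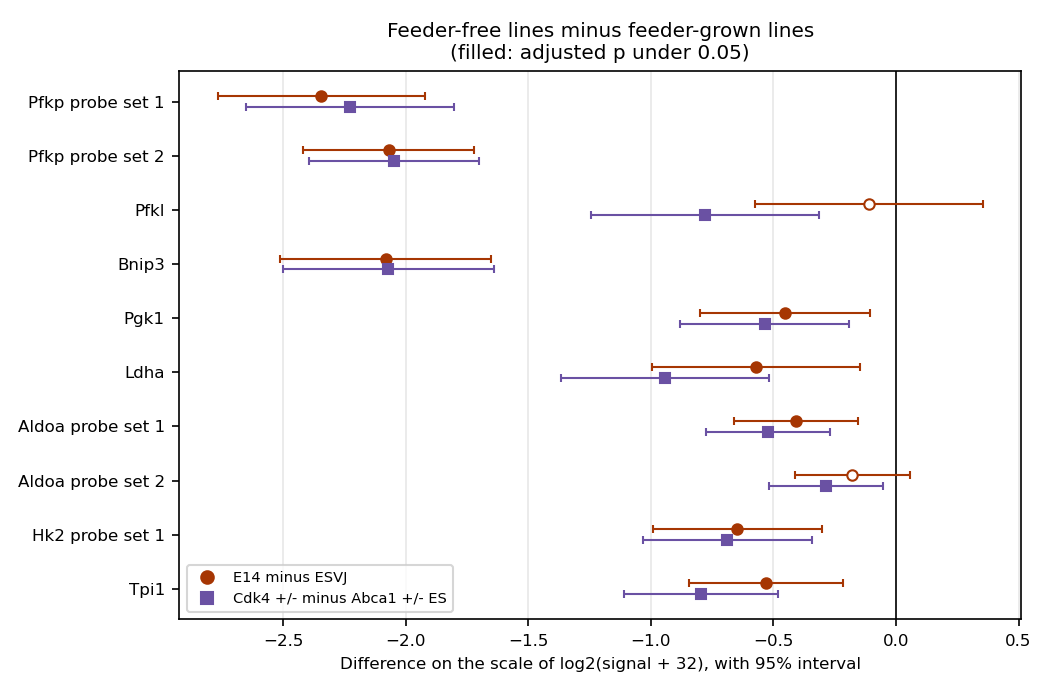
Log2 difference of each tested member probe set between the lines, with 95% intervals from limma, for E14 minus ESVJ and for Cdk4 +/- minus Abca1 +/-; filled points have an adjusted p under 0.05. Pfkp and Bnip3 lie near -2 in both, and the other members between -0.94 and -0.11.

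The mutant lines allow a like comparison on other arrays, but one in which the genotypes differ as well. Cdk4 +/- was set against Abca1 +/-, which shares no array with E14 against ESVJ, as an alternative chosen after the data had been seen. All 10 member probe sets were lower in Cdk4 +/-, where 40.5% of all probe sets passed and 21.1% passed as lower. Pfkp differed by -2.23 and -2.05 and Bnip3 by -2.07 on the log2 scale, close to the values between the +/+ lines. Pfkl, with log2 -0.78 ± 0.22 (adjusted p = 0.0103), passed here and not between the +/+ lines. Its value here includes the Cdk4 effect minus the Abca1 effect, which was -0.67 for Pfkl and did not pass (adjusted p = 0.320). Ldha (-0.94), Tpi1 (-0.80), Hk2 (-0.69), Pgk1 (-0.54) and the first Aldoa probe set (-0.52) passed as well. The second Aldoa probe set, at -0.29, was at the edge of the threshold (adjusted p = 0.0499).

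Markers moved with the same split. Of 12 ES cell markers, 11 were lower and 1 was higher in E14 than in ESVJ, and their summed signal was 57515 to 65257 in ESVJ and 34424 to 40606 in E14. Esrrb was the one of these markers under 100 in E14 and in Cdk4 +/-. The 13 fibroblast markers, which feeder cells would carry, summed to 4549 to 5195 in the lines once grown on feeders. In the feeder-independent lines they summed to 6161 to 8345. They did not move together: of the 5 that could be tested, 2 were higher and 2 were lower in E14 than in ESVJ. Pdgfrb, Postn, Dcn and Lum were under 100 in all 4 ES groups. The 4 cholangiocyte markers, genes of bile duct and other epithelia, summed to 584 to 757 in ESVJ and 630 to 733 in Abca1 +/-, against 3920 to 4256 in E14 and 3861 to 3995 in Cdk4 +/-. Of the 3 that could be tested, the keratins Krt19 (log2 4.95) and Krt7 (4.19) were higher in E14 than in ESVJ, and Epcam did not pass. Both keratins were under 100 in ESVJ and Abca1 +/-. They reached the signal filter only through the feeder-independent lines, where they are high, so the filter favoured that direction. Cftr was too low for a test, under 100 in Abca1 +/-, E14 and Cdk4 +/-. Both testable hepatocyte markers of 13 were lower in E14, Cyp2e1 by -0.99 and Cps1 by -0.66. The part of these markers in the difference of the members was not tested. In RNA from many cells, a smaller share of cells with a transcript and less of it per cell cannot be told apart.

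Of 11 other glycolytic genes tested, 5 were lower in E14 and 0 were higher, with a list median of -0.15 against -0.09 over all probe sets. Pfkm, the muscle-type phosphofructokinase, differed by -1.02, Aldoc, the brain aldolase, by -0.82, the hexokinase Hk1 by -0.74, and the mutase Pgam1 by -0.35 on the log2 scale. Of 5 genes for glucose and lactate transport, 2 were higher in E14, the glucose transporters Slc2a3 (log2 1.03) and Slc2a1 (0.65), and 1 was lower, the monocarboxylate carrier Slc16a1 (-0.84). In the pyruvate dehydrogenase list, 2 of 7 were lower: Pdk1, a kinase that shuts off entry of pyruvate into mitochondria (-1.37), and the subunit Pdhb (-0.41). None of the 6 pentose phosphate genes passed. The malate dehydrogenase Mdh1 (-0.57) was the 1 of 3 gluconeogenic genes that passed, and the 1 testable regulator of fructose 2,6-bisphosphate did not pass.

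The hypoxia genes gave a mixed picture. Among 15 other known HIF targets, 8 were lower in E14 and 2 were higher, with a list median of -0.47. The histone demethylase Kdm3a (log2 -0.96), the collagen hydroxylase P4ha2 (-0.80) and the oxidase Ero1a (-0.80) were lower, and Igfbp3, which binds insulin-like growth factors, was higher by 2.82. Among 11 genes of the HIF pathway itself, 4 were lower and 3 were higher, with a list median of 0.10. Epas1, which encodes the HIF2 alpha subunit, read 357 ± 89.0 in ESVJ and 65.5 ± 30.4 in E14 (SD, n = 3 each; log2 -2.02), and the partner subunit Arnt differed by -0.82. Cited2, an inhibitor of HIF, was higher in E14 by 1.72, and the HIF prolyl hydroxylase Egln2 by 0.53. Hif1a, named here outside the rule because it encodes the other main HIF subunit, read 3013 ± 496 in ESVJ and 3682 ± 559 in E14 (adjusted p = 0.141).

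Of 9 mitophagy genes measured beside Bnip3, 5 were higher and 2 were lower in E14, with a list median of 0.41. Bcl2l1, a survival protein of the Bcl2 family (log2 1.73), the autophagy receptor Sqstm1 (1.61) and Gabarapl1 of the Atg8 family (0.53) were higher, while its relative Gabarapl2 was lower (-1.75). Of 9 genes of the Myc network, which also drives glycolytic genes, 2 were higher, Mycl (0.79) and Mxd4 (0.66), and 3 were lower, among them Max (-0.62) and Mxi1 (-0.93), which also counts among the HIF targets.

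**Figure D3:**
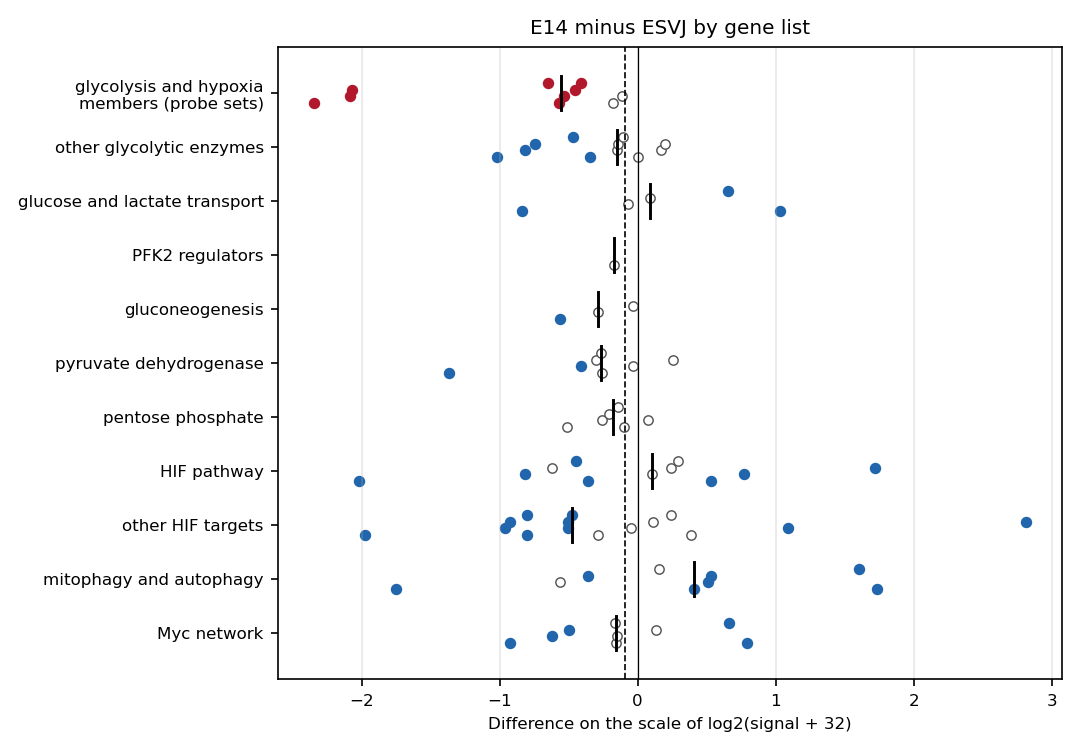
Log2 difference E14 minus ESVJ for the tested member probe sets and for the tested genes of each pathway list, 1 point each; filled points passed, black bars are list medians and the dashed line is the median of all probe sets (-0.09). The members lie below the line with a median of -0.55, the other HIF targets have a median of -0.47, and the mitophagy and HIF pathway lists spread to both sides.

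Loss of 1 copy of Cdk4 was compared with E14. None of the 10 member probe sets passed, where 4.91% of all probe sets did, and none separated the groups without overlap, against 24.9% of all. At an unadjusted p under 0.05 limma gave 2, Tpi1 and Pfkl, where 20.8% of all probe sets reached that level. Tpi1 read 5461, 6704 and 4603 in E14 and 3713, 4831 and 4089 in Cdk4 +/-, where only the highest Cdk4 +/- array reached the lowest of E14 (log2 -0.40, 95% interval -0.71 to -0.08, adjusted p = 0.139). Pfkl read 2487, 3596 and 1753 against 1366, 2189 and 1641 (log2 -0.55, interval -1.02 to -0.08, adjusted p = 0.165).

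The other members were closer. Ldha read 10773, 11320.5 and 7885 in E14 and 5754, 11020.5 and 7196 in Cdk4 +/- (log2 -0.36, interval -0.78 to 0.07), Pgk1 differed by -0.24 and the first Aldoa probe set by -0.19. Pfkp (0.07 and -0.05), Bnip3 (0.01), Hk2 (-0.09) and the second Aldoa probe set (0.01) lay near 0. For Bnip3 the 95% interval of -0.42 to 0.44 corresponds to 74.7% to 136% of the E14 level.

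With arrays left out, at most 1 of the 10 member probe sets passed. Replicate 2 of Cdk4 +/-, one of the arrays with a high BioB signal, was the highest of its group in 9 of the 10 member probe sets. Without it, Ldha passed (log2 -0.61, adjusted p = 0.0490), where 4.65% of all probe sets did. Ldha also passed without the 3 arrays of high BioB signal (adjusted p = 0.0424), where 5.7% of all did. Without replicate 3 of E14, Pfkl passed (log2 -0.80, adjusted p = 0.0299), where 7.09% of all did. The median coefficient of variation of the member probe sets was 18.7% in E14 and 18.3% in Cdk4 +/-, against 8.76% in ESVJ and 8.26% in Abca1 +/-.

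Around the members, none of 11 other glycolytic, 5 transport, 7 pyruvate dehydrogenase and 6 pentose phosphate genes passed in Cdk4 +/-. Of 15 other HIF targets, Bhlhe40, a transcriptional repressor of the clock and stress responses (log2 1.01), and Kdm3a (0.59) were higher and Igfbp3 was lower (-0.93). Egln2 was the 1 HIF pathway gene of 11 that passed (-0.59). Of 9 mitophagy genes, Gabarap (0.68) and Gabarapl2 (0.63) were higher and Map1lc3a was lower (-0.59). The repressor Mnt (0.71) was the 1 of 9 Myc network genes that passed.

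Loss of 1 copy of Abca1 was compared with ESVJ. None of the 10 member probe sets passed, with every adjusted p at 0.9997 and 0 at an unadjusted p under 0.05 by limma; of all probe sets, 0.0272% passed and 3.28% had an unadjusted p under 0.05. The differences lay between -0.15 for Pgk1 and 0.12 for Pfkl and the second Aldoa probe set. The intervals were narrow enough to be informative: that of Bnip3 ran from 74.1% to 135% of ESVJ, and that of the first Aldoa probe set from 79.9% to 114%. None of the pathway lists had a gene that passed. All 15 alternatives also gave 0 members.

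The Cdk4 effect minus the Abca1 effect was tested as an interaction. None of the 10 member probe sets passed, against 0.626% of all probe sets, and limma gave 1 at an unadjusted p under 0.05, against 15.2% of all. That was Pfkl, with a difference of -0.67 (interval -1.33 to -0.01, adjusted p = 0.320). Among the pathway lists, only Igfbp3 passed (log2 -1.10, adjusted p = 0.0375).

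**Figure D4:**
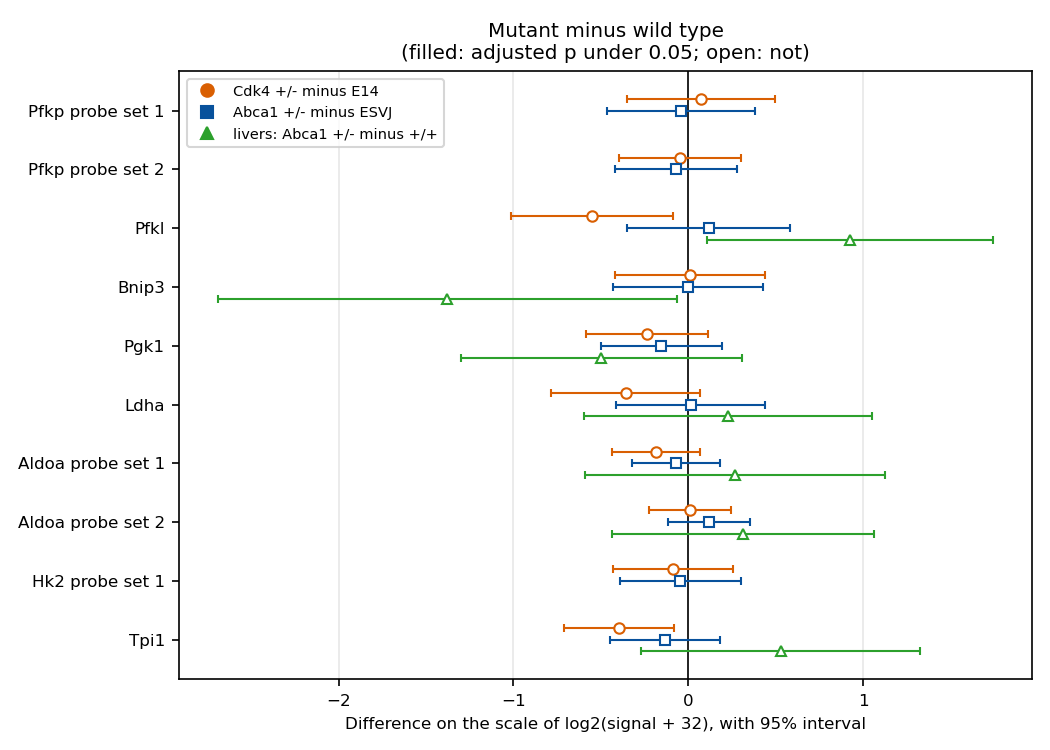
Log2 difference of each tested member probe set with 95% intervals from limma for Cdk4 +/- minus E14, Abca1 +/- minus ESVJ and the livers labelled Abca1 +/- minus +/+ livers; no point is filled because none passed. The Abca1 +/- ES values lie between -0.15 and 0.12, and the liver intervals, from 4 arrays, are the widest.

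In the livers the members could be tested for 7 probe sets of 6 genes, since Pfkp and Hk2 were below the signal needed. None passed between the livers labelled Abca1 +/- and the +/+ livers, where 1 of 7160 probe sets did (0.014%). Bnip3 read 2484 and 3953 in the +/+ livers and 559.7 and 2477 in those labelled Abca1 +/-, with the second pair far apart (log2 -1.38 ± 0.59, adjusted p = 0.254). Pfkl read 772 and 519 against 1499.7 and 1013, without overlap (log2 0.93 ± 0.37, adjusted p = 0.227). These were the 2 members at an unadjusted p under 0.05 by limma, which 18.4% of all probe sets reached. The groups did not overlap for 4 of the 7, against 51.7% of all probe sets.

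Tpi1 read 6305 and 3809 in the +/+ livers and 7312 and 6872 in the others (log2 0.53), and Pgk1 read 8015 and 5809 against 3933 and 5916 (log2 -0.50). Ldha (0.23) and the Aldoa probe sets (0.27 and 0.32) differed by less. Replicate 1 of the livers labelled Abca1 +/-, the array with the low 5'/3' ratios, was the higher of its pair in 8 of 10 member probe sets. Those 8 include both Pfkp probe sets and the first Hk2 probe set, which were below the signal needed for a test. It was the lower for Bnip3 and Pgk1. The 12 macrophage markers, of which Ptprc and Marco were under 100 in both groups, summed to 5524 to 7542 in the +/+ livers and to 8073 to 13017 in the livers labelled Abca1 +/-. The part of either in these values was not tested. With all 16 arrays in one fit, which borrows the spread of the ES cells, Pfkl (adjusted p = 0.0307) and Bnip3 (0.0327) passed, as did 25.1% of all 7841 probe sets. Without replicate 2 of the livers labelled Abca1 +/-, which leaves the array of low 5'/3' ratio alone, both passed as well (adjusted p = 0.0241 and 0.00132), along with 22.8% of all 7239.

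Between liver and ES cells the members divided into 3 kinds: Bnip3 was higher in liver, Pfkp, Hk2, Aldoa and Pfkl were lower, and Tpi1, Pgk1 and Ldha were closest. Against ESVJ, 8 of the 10 probe sets passed, 1 higher and 7 lower in +/+ liver, where 70% of all 7841 probe sets passed, 23.8% as higher and 46.2% as lower. Against E14, 7 passed, 1 higher and 6 lower, where 73.3% of all did, 26.6% as higher and 46.7% as lower. The share of members that passed is therefore near that of the whole array. Both Pfkp probe sets and Hk2 were below the signal filter in the livers and entered this fit only through the ES cells, where they are high. The filter therefore favoured a call as lower in liver for these 3, above all against ESVJ. Against E14 it bore less on Pfkp, whose probe sets averaged 228 and 259 in E14 and 1231 and 1177 in ESVJ. Both comparisons use the same 2 livers. The median of all probe sets was -0.42 in both on the log2 scale.

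Bnip3 in +/+ liver was 4.64-fold the level in ESVJ (log2 2.21, adjusted p = 1.07e-04) and 19.6-fold that in E14 (log2 4.29, adjusted p = 3.85e-08). In order of mean signal Bnip3 stood at 3218 in +/+ liver, 1519 in the livers labelled Abca1 +/-, 652 and 651 in Abca1 +/- and ESVJ cells, and 136 and 131 in Cdk4 +/- and E14 cells. The ES lines of a pair overlapped each other, as did the livers labelled Abca1 +/- and the Abca1 +/- ES cells, because 1 of those livers was as low as these cells.

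Pfkp was at or near the floor of the array in liver. Its first probe set read 1.1 and 2.03 in the +/+ livers and 14.9 and 5.23 in the others, and its second 9.66 and 9.99 against 50.6 and 8.13. The log2 differences from ESVJ were -5.23 and -4.85 and those from E14 -2.89 and -2.78. At this level the size is set by the pseudocount: with 1 in place of 32 the first probe set differed from ESVJ by -8.93, and with 100 by -3.71. Hk2 was likewise low, at 51.4 and 50 in the +/+ livers (log2 -4.84 from ESVJ and -4.19 from E14). With pseudocounts of 1 and 100 its difference was -5.49 and -4.01 from ESVJ, and -4.84 and -3.39 from E14.

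Aldoa and Pfkl were lower in liver but still measured. The first Aldoa probe set read 1801 and 1244 in +/+ liver and the second 915 and 929, 15.3% and 21.9% of ESVJ. Pfkl, the subunit named for the liver, read 772 and 519, 24.3% of ESVJ and 26.2% of E14 (adjusted p = 2.67e-06 and 5.03e-06). No liver reached the lowest +/+ ES array for Pfkl or Aldoa. For Pfkl, replicate 1 of the livers labelled Abca1 +/-, at 1499.7, lay above the lowest Cdk4 +/- array, at 1366.

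The order of Tpi1, Pgk1 and Ldha between the tissues depended on the scaling. Tpi1 in +/+ liver was 61.4% of ESVJ (log2 -0.70, adjusted p = 0.00610) and 88.8% of E14 (adjusted p = 0.467). Without +/+ liver replicate 2 the call against ESVJ was lost (log2 -0.34, adjusted p = 0.196), and without replicate 1 Tpi1 passed against E14 (log2 -0.53, adjusted p = 0.0451). Ldha read 8834 and 10717 in +/+ liver and differed by -0.59 from ESVJ (adjusted p = 0.0543) and by -0.02 from E14. Pgk1, at 8015 and 5809, differed by -0.09 from ESVJ and by 0.36 from E14.

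Quantile normalization moved the median of all probe sets from -0.42 to -0.12 against ESVJ and to -0.13 against E14. Relative to that median, Pgk1 went from 0.33 to -0.66 against ESVJ and from 0.78 to -0.24 against E14, so its direction turned. Ldha, relative to the median, went from -0.17 to -1.05 against ESVJ and from 0.40 to -0.84 against E14. With quantile normalization 10 of the 10 members passed against ESVJ and 9 against E14, where the main fits had 8 and 7. In those main fits 70% and 73.3% of all probe sets passed, so most probe sets differ between the tissues. The share of all probe sets with quantile normalization is not given here. The gain in members can therefore not be set against a gain over the whole array. The members gained were Ldha and Pgk1 against ESVJ, and Ldha and Tpi1 against E14. Bnip3, Aldoa and Pfkl kept their direction and their call in every alternative run for them. Pfkp and Hk2 did too, but their entry through the ES cells favoured that call.

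Over the 6 groups, Pfkp, Hk2 and the first Aldoa probe set fell into 3 steps without overlap: the lines once grown on feeders, the feeder-independent lines, and the livers. Within each step of Hk2 and Aldoa the groups overlapped. For Ldha every group overlapped its neighbour in the order of means, which ran from 14869 in Abca1 +/- cells to 7990.5 in Cdk4 +/- cells. For Pgk1 the one gap lay between Abca1 +/- cells and E14, for Tpi1 between the livers labelled Abca1 +/- and E14, and for Pfkl between the livers labelled Abca1 +/- and the +/+ livers, which were lowest.

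The rest of the pathway also divided between the tissues. Of 11 other glycolytic genes, 6 were lower and 2 were higher in +/+ liver than in ESVJ, led by Pkm, the pyruvate kinase of most tissues (log2 -6.36), Pgam1 (-1.98), the lactate dehydrogenase subunit Ldhb (-2.71) and the ADP-dependent glucokinase Adpgk (-1.71). Against E14 5 were lower and 4 higher. All 7 transport genes passed against ESVJ, 4 higher and 3 lower. The liver glucose transporter Slc2a2 (log2 5.61) and the glucose 6-phosphate carrier Slc37a4 (5.23) were higher, and the transporters Slc2a1 (-5.78) and Slc2a3 (-3.49) lower. Of 6 gluconeogenic genes, 4 were higher and 1 was lower, with Fbp1 at 8.54, Pck1 at 6.76, Pcx at 4.30 and G6pc at 4.16. In the ES cells alone 3 gluconeogenic and 5 transport genes reached the signal filter, against 6 and 7 here. Those gained entered through the livers, where they are high, so the filter favoured a call as higher. Of the other glycolytic genes 8 reached it in the livers alone, against 11 here, which favoured a call as lower.

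Of 18 other HIF targets, 4 were higher and 9 lower in +/+ liver than in ESVJ, with Kdm3a at -3.12 and the selenium-binding protein Selenbp1 at 5.68. Among 11 HIF pathway genes 1 was higher and 7 were lower, and Hif1a differed by -2.29. Of 9 mitophagy genes, 5 were higher and 1 was lower against ESVJ and 6 were higher and 2 lower against E14, beside the 23.8% and 26.6% of all probe sets that were higher. Gabarapl1 (3.93), Gabarap (1.88), Sqstm1 (2.02) and Map1lc3b (1.51) were higher against ESVJ. Of 9 Myc network genes 6 were lower and 1 was higher. The limit set by the signal filter holds here too: 15 of the HIF target list reached it in the ES cells alone. In the livers alone 6 of the Myc network list did.

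**Figure D5:**
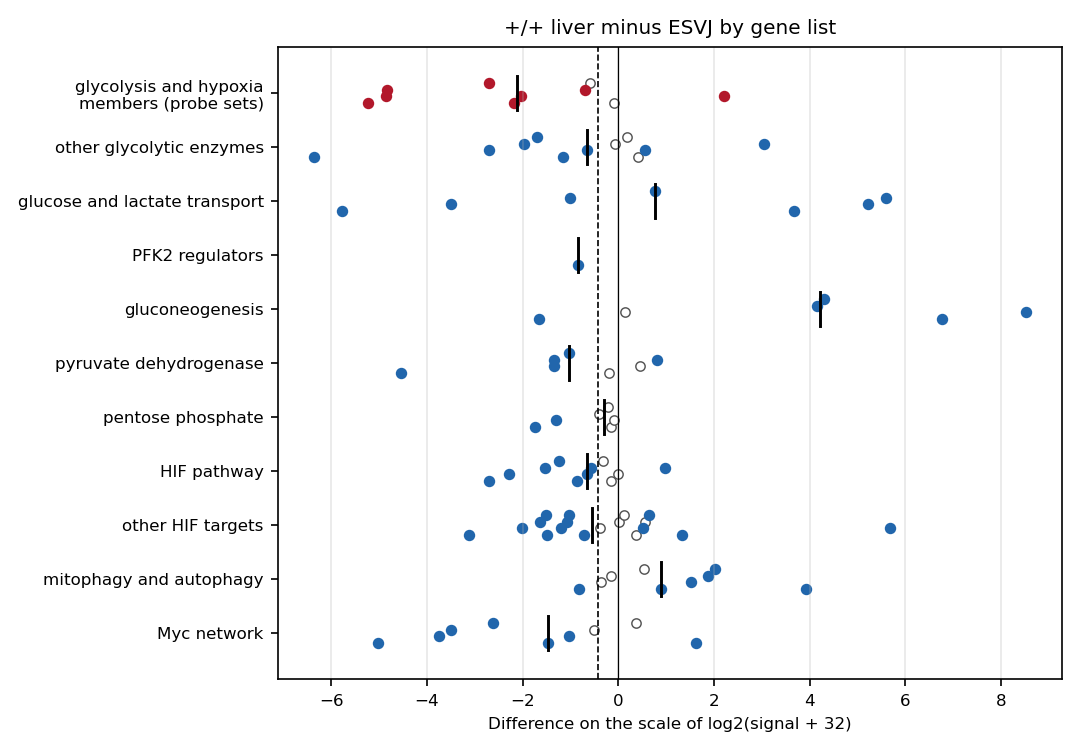
Log2 difference +/+ liver minus ESVJ for the tested member probe sets and for the tested genes of each pathway list, 1 point each; filled points passed, black bars are list medians and the dashed line is the median of all probe sets (-0.42). Bnip3 is the one member above the line that passed, the gluconeogenesis list has a median of 4.23 and the other glycolytic genes one of -0.66. In the ES cells alone 3 gluconeogenic genes were testable, against 6 here, and those gained entered through the livers.

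Over the 12 ES arrays the members had different nearest companions among 5582 genes, by Pearson's r of log2 values. These are descriptions over arrays that share the split between lines, so any gene with the same split scores high. Bnip3 was most like Thumpd1 (0.989) and Mkrn1 (0.988), Pfkp like A2m (0.986) and Upp1 (0.985), and Hk2 like Ctnnal1 (0.971) and Slc16a1 (0.970). Ldha and Pgk1 shared a companion, Nhp2 (0.988 and 0.962), followed by Cenpa (0.987) and Mcm5 (0.959). Aldoa was most like the ES marker Utf1 (0.984) and Tbl3 (0.970), Tpi1 like Tmem97 (0.975) and Ppp1r7 (0.967), and Pfkl like the mitotic kinase Aurkb (0.953) and Nme4 (0.947).

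Gapdh, the glycolytic enzyme measured by the array's control probe sets and left out of the tests, read 16754 to 24913 in ESVJ and 15282 to 15508 in E14 with its 3' probe set. It read 18487 to 23832 in Abca1 +/-, 13821 to 21961 in Cdk4 +/-, 7219 to 10960 in +/+ liver and 13359 to 19251 in the livers labelled Abca1 +/-. The lowest ESVJ array lay above the highest E14 array, as for most of the members.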

How the data were processed

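RNA of 16 samples was hybridised to U74Av2 arrays and processed by the authors with MAS 5.0 at default settings, per the labels. The deposited values are linear signal intensities, 1 per probe set, which the authors had scaled to a trimmed mean of 1501 or 1502. The table holds no detection calls. All columns were used.

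Intensities were rescaled to a 2% trimmed mean of 500 and log2(signal + 32) was taken. Of 12488 probe sets, 10855 carry 1 gene symbol, 396 several and 1237 none in the annotation of the array. Probe sets with a mean of at least 100 over a fit entered limma (version 3.58.1, under R 4.3.3) using an intensity trend and moderated variances (eBayes), and Benjamini-Hochberg adjustment ran over every tested probe set. Control probe sets were left out. One fit held the 12 ES arrays (7349 probe sets tested, residual df 8), one the 4 livers (7160, df 2), and one all 16 arrays for liver against ES cells (7841, df 10). The tests were checked on simulated data. The number of arrays limits the precision: the median standard error was 0.17 in ES cells and 0.38 in liver on the log2 scale.

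Named are all members, Cdk4 and Abca1, up to 4 genes per pathway list that passed with the smallest p, Gapdh, and the 2 genes most correlated with each member; a listed gene was represented by its probe set of highest mean signal. The members and the 10 pathway and 7 marker lists were chosen with earlier results of these data known. Promoter windows came from RefSeq (GRCm38.p6).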

Additional observations from a re-analysis of the deposited data

How the results depend on the processing

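Alternatives were quantile normalization, pseudocounts of 1 and 100, other signal filters and no intensity trend. Further ones used other sets of arrays in a fit, left out probe sets marked for cross-hybridisation, or left out each array in turn. Those without the arrays of high BioB signal, without the liver of low 5'/3' ratio, with wild-type groups only and with the mutant lines were chosen after seeing the data. Members that passed in E14 against ESVJ numbered 5 to 8 with 1 array left out. In Cdk4 +/- against E14 they numbered 0 to 1, and 1 without the arrays of high BioB signal. In Abca1 +/- against ESVJ, and in the difference of both effects, they numbered 0 throughout. In the livers they numbered 0 to 2 with 1 array left out and 2 with all arrays in 1 fit. In +/+ liver they numbered 7 to 8 against each +/+ line with 1 array left out. Without probe sets marked for cross-hybridisation, which leaves 7 tested, 5 passed against ESVJ and 4 against E14, since fewer were tested. No called value changed its direction. A fit that leaves 1 liver in a group assumes that it varies like the other pair. No paired analysis was possible because the labels give no replicate numbers. Signal near the floor of the array limits Pfkp and Hk2 in liver, and 4 arrays limit the liver comparison.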
